A study of Homo sapiens with 48 samples.

Results

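The genes described here encode nuclear subunits of the mitochondrial respiratory chain, complexes I to IV, and of ATP synthase, complex V. They were taken by gene symbol from a deposited table of 19253 genes, using the symbol stems NDUFA, NDUFB, NDUFC, NDUFS and NDUFV, UQCR, SDHA to SDHD, COX4 to COX8 and ATP5. This gave 85 members, of which 36 belong to complex I, 4 to complex II, 9 to complex III, 17 to complex IV and 19 to complex V. NDUFA4 was counted with complex IV, where its protein resides despite its name. The symbol rule does not reach every nuclear subunit (NDUFAB1 is left out). It takes in COX7A2L, a supercomplex factor, and ATP5IF1, an inhibitor. Counts per complex are therefore counts of members, not of whole complexes. The rule used the name alone and no measured value, but it was set with earlier results of these data known.

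RNA was sequenced from 48 libraries of H9, an established human embryonic stem cell line labelled wild type, in 24 groups of 2. Cells were grown as a monolayer in E6, a serum-free medium without the factors that keep stem cells undifferentiated, and were left to differentiate for 8 days under exposure. The group D0 was taken at day 0 without treatment, and every other group at day 8. At day 8 the groups were DMSO, the solvent control, and the compounds ACE, CYC, IMI, TDCIPP, TEP and TPHP (hereafter the 6 compounds), each with and without S9, together with DMSO with S9. The other day 8 groups were BHT, BHT_CHO, BHT_COOH, BHA, TBHQ, DTBP, DG, AO_2246 and AO168_O (the 9 compounds), which had no S9 group. All groups share 1 cell line. NEOs, OPEs and SPAs are the families that the labels mention, without placing each compound. No dose or batch is stated in the sources used here, nor what S9 stands for. Nothing says that the 2 replicates of a group came from separate cultures, so p-values measure the spread between these libraries, which may be technical.

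Complex I takes electrons from NADH and complex II, the succinate dehydrogenase of the tricarboxylic acid cycle, takes them from succinate. Complex III passes them to cytochrome c and complex IV, cytochrome c oxidase, passes them to oxygen. The proton gradient made on the way drives ATP synthase. Most subunits are encoded in the nucleus, and complexes I, III, IV and V also hold subunits encoded by mitochondrial DNA, which were not analysed here. Undifferentiated human pluripotent stem cells are known to rely strongly on glycolysis.

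Many promoters of these genes are known to bind NRF1, a transcription factor for respiratory genes, and ETS-family factors. The 250 bases before the RefSeq start (GRCh38.p14) were found for 69 of the 85 members. On either strand, the NRF1 motif (GCGC, then A and any base, then GCGC) was present in 15 of the 69 members (21.7%). It was present in 5.5% of all 27305 promoters of the reference set, which was not limited to genes measured or expressed here. The ETS motif CCGGAAG was present in 17 members (24.6%) and in 8.8% of all promoters. CCAAT was present in 23 members (33.3%) and in 33.0% of all promoters. These are matches of letters, with no measurement of binding. Below are promoters of 4 members described in the results that carry the NRF1 motif, shown to place that motif relative to the start. They lie at chr12:4648864-4649113 on the plus strand (NDUFA9), and on the minus strand at chr19:5903791-5904040 (NDUFA11), chr19:1605463-1605712 (UQCR11) and chr3:48609647-48609896 (UQCRC1). Each is written 5′ to 3′ in the direction of the gene and ends at the base before the start, and capitals mark the motif.
NDUFA9: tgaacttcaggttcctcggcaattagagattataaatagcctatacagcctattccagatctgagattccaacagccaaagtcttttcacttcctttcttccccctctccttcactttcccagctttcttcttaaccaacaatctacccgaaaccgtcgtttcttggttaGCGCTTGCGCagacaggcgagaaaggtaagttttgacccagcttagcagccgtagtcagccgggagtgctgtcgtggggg
NDUFA11: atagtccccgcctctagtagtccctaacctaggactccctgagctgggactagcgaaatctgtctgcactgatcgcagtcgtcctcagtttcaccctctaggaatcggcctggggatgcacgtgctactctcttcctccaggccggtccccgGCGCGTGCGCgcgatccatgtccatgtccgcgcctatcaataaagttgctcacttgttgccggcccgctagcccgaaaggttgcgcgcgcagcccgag
UQCR11: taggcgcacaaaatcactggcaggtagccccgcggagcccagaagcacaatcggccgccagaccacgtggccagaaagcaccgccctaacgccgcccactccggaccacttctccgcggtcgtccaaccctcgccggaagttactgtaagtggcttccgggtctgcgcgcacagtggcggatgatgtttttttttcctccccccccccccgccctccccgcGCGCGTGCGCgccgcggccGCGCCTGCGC
UQCRC1: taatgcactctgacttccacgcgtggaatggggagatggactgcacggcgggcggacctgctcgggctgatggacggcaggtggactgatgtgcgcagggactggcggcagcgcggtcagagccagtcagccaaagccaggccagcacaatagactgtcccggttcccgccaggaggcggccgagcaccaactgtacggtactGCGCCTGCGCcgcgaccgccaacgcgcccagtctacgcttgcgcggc

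Library totals ran from 17918867 to 20096130 counts. Undifferentiated stem cell markers (POU5F1, NANOG, NODAL, TDGF1) summed to 4213 CPM (counts scaled to the library total) at D0 and to 977 in DMSO. Neural ectoderm markers (PAX6, SIX3, LHX5, SOX1) summed to 3.98 and 767 CPM, with SOX1 at only 0.18 and 0.31 CPM. Surface ectoderm markers (GATA3, TFAP2A, KRT8, DLX5) differed little in sum, 961 and 996 CPM, of which KRT8 made 958 and 889 CPM. The others were higher in DMSO: GATA3 stood at 1.64 and 21.9 CPM, TFAP2A at 0.90 and 20.3 CPM and DLX5 at 0.24 and 63.9 CPM. Muscle and heart markers summed to 157 CPM at D0 and 61.6 CPM in DMSO, of which ACTC1 made 152 and 56.1 CPM. DMSO with S9 stood apart from the rest of day 8, with a stem cell marker sum of 75.1 CPM. Mesendoderm markers summed to at most 4.79 CPM in any group. In bulk RNA, fewer cells of a type and less RNA per cell cannot be told apart.

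The subunits were abundant. On the TPM scale (scaled to gene length and library total, as deposited), 60 of the 85 members had a median over the 48 libraries of at least 100, and 13 of at least 500. ATP5MC2, which encodes the c subunit of the ATP synthase rotor, had the highest median, 997 TPM. Within the other complexes the highest medians were those of COX7C (979.68 TPM), UQCRH (660.27 TPM), NDUFA13 (645 TPM) and SDHB (120.06 TPM). The lowest were NDUFA9 in complex I (14.9 TPM), SDHA in complex II (83.3 TPM), UQCRHL in complex III (8.995 TPM), COX8C in complex IV (0.41 TPM) and ATP5MGL in complex V (0.57 TPM). The place of NDUFA9 depends on the scaling to gene length: it averaged 64.5 CPM, above NDUFB3 of the same complex (19.4 CPM). UQCRHL is an intronless copy of UQCRH, and how reads were split between the 2 genes is not stated, so both values are uncertain. The same holds for ATP5MG and ATP5MGL.

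Except for COX6B2, the tissue isoforms of complex IV (COX4I2, COX6A2, COX7A1 and COX8C) had few counts. COX7A1 and COX8C, the muscle and testis forms of their subunits, and ATP5MGL were the 3 members with too few counts to test. COX7A1 had between 0 and 9 counts in a library and COX8C between 0 and 5. Their widely expressed counterparts COX7A2 and COX8A had medians of 393 and 597 TPM. The other 82 members passed the filter on low counts and were tested.

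Together the 85 members took 2.59% of the TPM of each D0 library and less in every day 8 library. In DMSO they took 2.21% ± 0.146 (SD, n = 2). The lowest group means were 1.85% in CYC and 1.88% in DMSO with S9, and the highest at day 8 was 2.43% ± 0.169 in AO_2246. All 12 libraries of the 6 compounds without S9 lay below all 18 libraries of the 9 compounds.

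**Figure D1:**
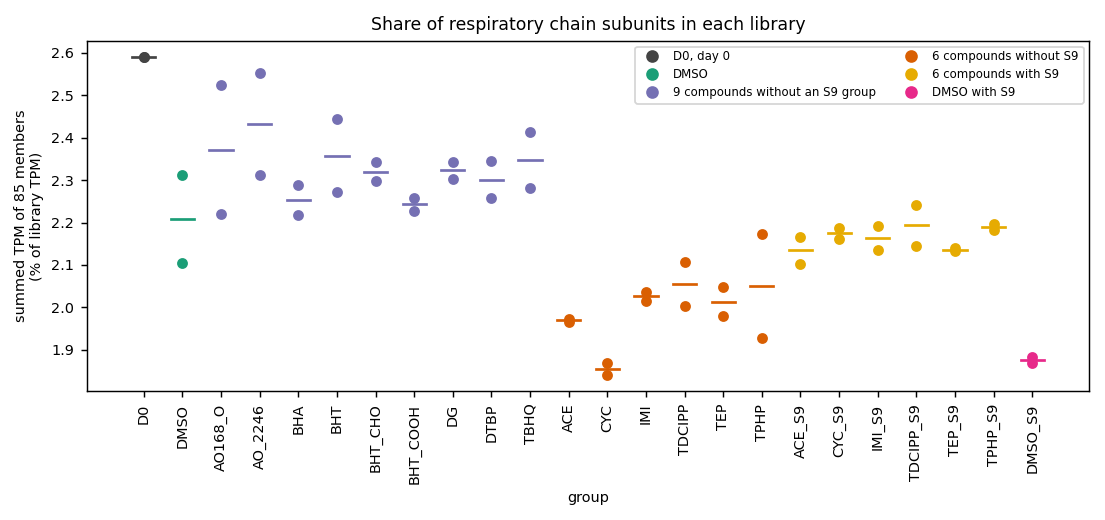
Summed TPM of the 85 members as a percentage of each library's TPM (vertical axis, not starting at 0) by group, with dots for libraries and bars for group means. D0 is highest at 2.59%, and CYC and DMSO with S9 are lowest at 1.85% and 1.88%.

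The first comparison asked how the subunits changed over differentiation without compound, DMSO at day 8 against D0. Most of them fell. Of 82 tested members 60 fell and 5 rose (edgeR quasi-likelihood test, adjusted p under 0.05 over all genes tested), where 58.2% of all 16209 genes tested were called, 29.1% in each direction. The median log2 fold change was -0.49 over the members and 0.04 over all genes tested. The fall reached each complex: 28 of 36 members of complex I, 3 of 4 of complex II, 6 of 9 of complex III, 7 of 15 of complex IV and 16 of 18 of complex V. Of these 65 calls, 40 held whichever of the 4 libraries was left out, and the count without each ran from 44 to 69, the lowest without DMSO replicate 2. When only these 4 libraries entered the fit, 43 members were called. With a smooth trend on gene length removed from every library, 44 members were lower and 10 higher (median -0.27), and 18 of the 60 falls were no longer called. Complex IV then had 3 lower and 4 higher members (median 0.02, from -0.32).

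ATP5MC1, a gene for the same rotor subunit as ATP5MC2 and ATP5MC3, had the lowest p. It measured 135 and 129 CPM in the D0 libraries and 58.9 and 49.3 CPM in DMSO, and fell by 1.29 in log2 units (SE 0.134, adjusted p = 2.71e-09). The groups did not overlap. ATP5MC3 fell by 0.86 (adjusted p = 7.28e-06), whereas ATP5MC2 measured 296 and 294 CPM at D0 and 299 and 302 CPM in DMSO (a log2 change of 0.03 with an SE of 0.107, adjusted p = 0.843). The 3 genes encode the same mature protein, and ATP5MC2 had the highest TPM of them. With the length trend removed ATP5MC1 (-0.95) and ATP5MC3 (-0.82) stayed lower. ATP5MC2 was then called higher (0.36, SE 0.0754, adjusted p = 1.81e-04), so its result depended on the processing.

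In complex I, the core subunit NDUFS3, part of the arm that carries the iron-sulphur clusters, measured 125 and 111 CPM at D0 and 55.0 and 45.5 CPM in DMSO. It fell by 1.23 (SE 0.141, adjusted p = 1.61e-08). NDUFA9, an accessory subunit, stood at 119 CPM in both D0 libraries and at 66.8 and 54.4 CPM in DMSO, a fall of 0.97 (SE 0.103, adjusted p = 4.17e-09). NDUFS6, an accessory subunit with a zinc site, fell by 0.89 (adjusted p = 1.18e-08). Of these 3, none overlapped between the groups. NDUFS4, an accessory subunit needed for a stable complex, went the other way, from 30.0 and 29.4 CPM to 41.9 and 38.6 CPM (log2 fold change 0.44, SE 0.108, adjusted p = 9.02e-04).

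Of the 4 subunits of complex II, SDHB, the iron-sulphur subunit, fell by 0.67 (adjusted p = 7.31e-05), SDHD, a membrane anchor, by 0.63 (adjusted p = 9.33e-04) and SDHA, the flavin subunit, by 0.36 (adjusted p = 8.41e-03). SDHC, the other anchor, changed by -0.01 in log2 units and did not pass (SE 0.0846, adjusted p = 0.945). In complex III the core protein UQCRC1 went from 352 and 371 CPM at D0 to 179 and 163 CPM in DMSO without overlap, and fell by 1.08 (SE 0.147, adjusted p = 3.34e-07). Its partner UQCRC2 was called higher (log2 fold change 0.36, adjusted p = 0.0235), but its groups overlapped, with 196 and 124 CPM at D0 and 218 and 193 CPM in DMSO. ATP5IF1, which inhibits ATP hydrolysis by the synthase, fell by 0.55 (adjusted p = 1.44e-05), and ATP5MD, a small membrane subunit, by 1.14 (adjusted p = 3.06e-08).

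Complex IV differed in that 3 of its tissue isoforms rose. COX6B2, the testis form of COX6B, measured 1.93 and 2.74 CPM at D0 and 12.7 and 15.9 CPM in DMSO, a log2 change of 2.61 (SE 0.316, adjusted p = 4.15e-08). COX6B1, its common form, fell by 0.44 (adjusted p = 4.65e-03). COX6A2, the heart and muscle form, had 2 and 3 counts at D0 and 14 and 13 counts in DMSO, and COX4I2, the lung form, had 0 and 1 against 2 and 10. Both were called higher (adjusted p = 9.96e-03 and 0.0109), on counts too low for a fold change. COX4I1 and COX6A1, the common forms, fell by 0.52 and 0.50. With the length trend removed the 3 tissue isoforms were still called higher and COX4I1 stayed lower (-0.23). COX6A1 (-0.15, adjusted p = 0.212) and COX6B1 (-0.08, adjusted p = 0.321) were then no longer called.

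**Figure D2:**
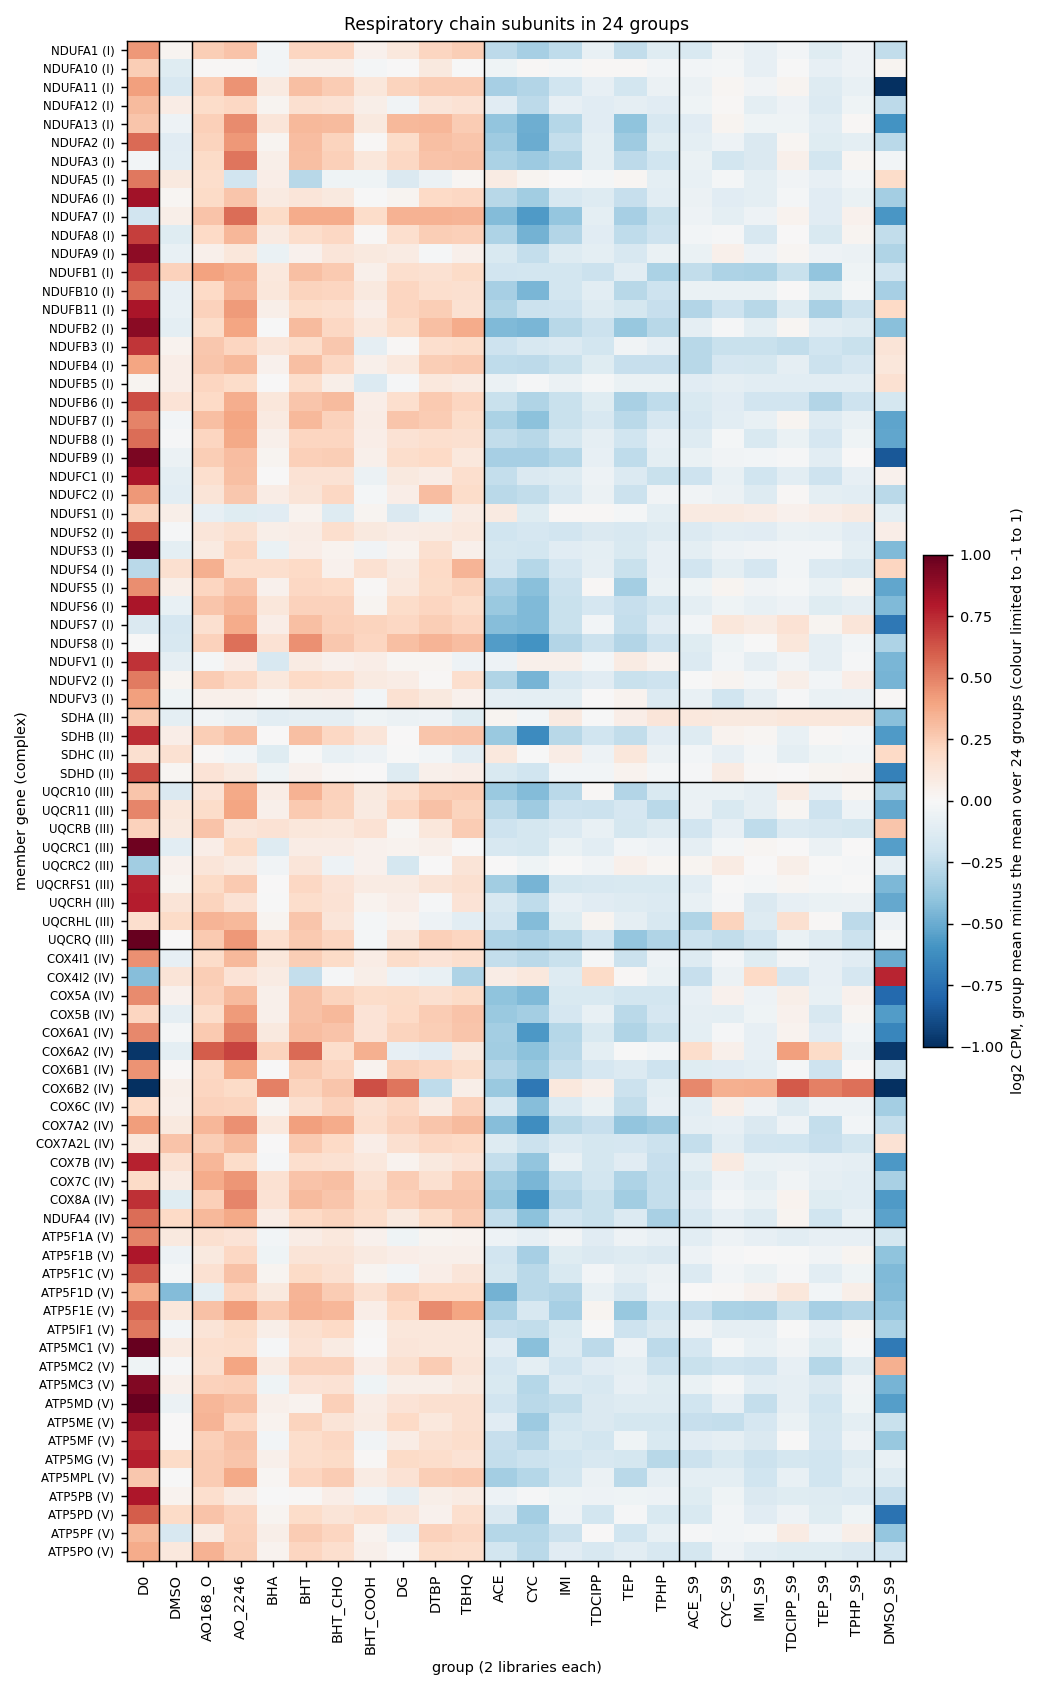
Group mean log2 CPM of the 82 tested members (rows, by complex) in 24 groups (columns, 2 libraries each), each row centred on its mean over the groups, with colour limited to -1 to 1. The D0 column is high for most members, the 9 compounds are mostly above and the 6 compounds without S9 mostly below their row means, and DMSO with S9 is low for many members.

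Lists of other mitochondrial genes mostly fell more often than they rose, on lists chosen with earlier results of these data known. Over all genes tested 29.1% fell and 29.1% rose. Among other genes shorter than 1000 bases 44.6% fell and 18.1% rose. No counts with the length trend removed are given for the lists, so how far they depend on it is not known. Of 78 mitochondrial ribosomal proteins 66 fell and 0 rose (median log2 fold change -0.75), and of 84 cytosolic ribosomal proteins 11 fell and 8 rose (median -0.06). Assembly factors of the chain fell in 26 of 47 and rose in 9, among them TMEM70, needed for ATP synthase assembly, which fell by 1.12. Enzymes of the tricarboxylic acid cycle fell in 12 of 18 and rose in 1, and glycolytic genes fell in 16 of 22 and rose in 3. LDHA, which makes lactate, fell by 1.90. CYCS, which encodes cytochrome c, fell by 1.00. Of 16 regulators of mitochondrial biogenesis 8 fell and 2 rose: TFAM, which maintains mitochondrial DNA, fell by 0.63 and NRF1 by 0.29, while GABPA, an ETS-family factor, rose by 0.87.

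The comparison of the 6 compounds with the 9 compounds, each set without S9, rests on the most libraries, 12 against 18, and does not use DMSO. Its SEs and p-values come from the spread between the 2 libraries of each group. They do not measure the spread between compounds. Of 82 members 71 were lower in the 6 compounds and 1 was higher, where 66.5% of the 16113 genes tested were called, 33.4% lower and 33.1% higher. The median log2 difference was -0.37 over the members and 0.01 over all genes tested. Lower members made up 32 of 36 in complex I, 1 of 4 in complex II, 7 of 9 in complex III, 14 of 15 in complex IV and 17 of 18 in complex V. Without each of the 30 libraries in turn the count was 71 to 75, and 70 of the calls held every time.

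NDUFA7, an accessory subunit of complex I, had the lowest p. Its lowest, median and highest values were 39.7, 45.4 and 57.2 CPM in the 12 libraries of the 6 compounds, and 62.9, 73.4 and 98.8 CPM in the 18 libraries of the 9 compounds. The sets did not overlap, and the log2 difference was -0.69 (SE 0.0487, adjusted p = 2.67e-12). COX7A2, the common form of its complex IV subunit, ran from 68.0 to 97.4 CPM (median 79.9) against 103 to 169 CPM (median 124), a difference of -0.70 (SE 0.0568, adjusted p = 3.71e-11). COX8A ran from 87.2 to 129 CPM against 136 to 210.4 CPM, a difference of -0.63 (adjusted p = 4.18e-11). Neither overlapped between the sets. NDUFS6 and NDUFA13, both accessory subunits of complex I, differed by -0.48 and -0.60 without overlap.

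Complex II was split. SDHB differed by -0.52 (SE 0.0499, adjusted p = 7.80e-10), and SDHA was the member called higher, by 0.11 (SE 0.0422, adjusted p = 0.0226), with overlapping sets of 118 to 150.3 CPM and 107 to 131 CPM. SDHC and SDHD differed by 0.06 and -0.11 and did not pass the test (adjusted p = 0.0693 and 0.0975).

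This joint shift moved with gene length. The median length of the members was 722 bases, against 2977 bases over all genes of the table. Among other genes shorter than 1000 bases the median log2 difference was -0.35 and 73.8% were lower, while among those longer than 4000 bases the median was 0.14 and 19.1% were lower. The 50 tested members shorter than 1000 bases had a median of -0.42. When the trend on length was removed, 36 members were lower and 14 higher, and the members' median was -0.06. Of the 71 lower members, 35 stayed lower, 24 were no longer called and 12 were called higher. Complex IV kept 10 lower and 0 higher members, and complex V had 4 lower and 6 higher. NDUFA7 (-0.26), COX7A2 (-0.27), COX8A (-0.16) and SDHB (-0.24) stayed lower, and NDUFS6 did not pass the test (-0.03, adjusted p = 0.411). SDHA was no longer called (0.10, adjusted p = 0.0522). What made the libraries differ by gene length was not tested.

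**Figure D3:**
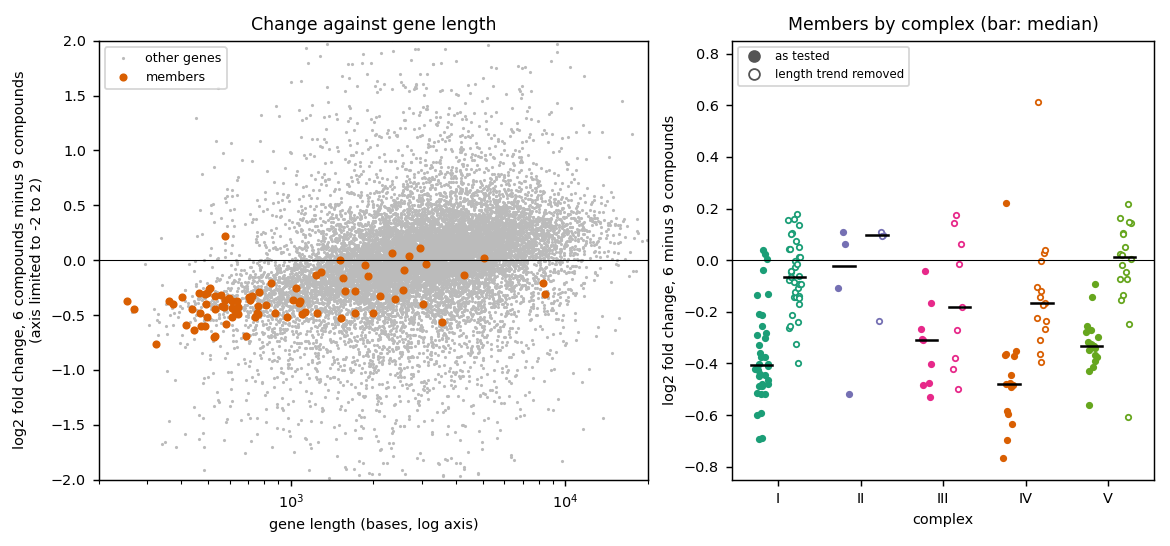
Left, log2 difference of the 6 compounds minus the 9 compounds against gene length (log axis, vertical axis limited to -2 to 2) for members and other genes. Right, the tested members by complex as tested (filled) and with the length trend removed (open), with bars for medians. The members lie at the short end, and their median moves from -0.37 to -0.06 when the trend is removed.

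Cell type markers also moved between the sets. Surface ectoderm markers (GATA3, TFAP2A, KRT8, DLX5) summed to 2987 to 4337 CPM in the groups of the 6 compounds and to 773 to 1425 CPM in those of the 9, and amnion markers (ISL1, HAND1, GABRP) to 65.96 to 279 CPM and to 6.43 to 11.4 CPM. Among the 4 surface ectoderm markers 3 were higher, as were all 3 amnion markers, and all 4 neural ectoderm markers were lower. The part of these markers in the members' difference was not tested. Cytosolic ribosomal proteins, which are also encoded by short genes, were lower in 82 of 84 (median -0.33), and mitochondrial ribosomal proteins in 58 of 78 (median -0.22). Over all genes tested 33.4% were lower. TFAM was higher by 0.31.

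Against DMSO itself, the 6 compounds as a set had 23 lower and 0 higher members (median -0.20), where 25.6% of all genes were called and 13.4% were lower. COX7A2L, a factor that joins complexes III and IV into supercomplexes, had the lowest p. It measured 147 and 108 CPM in DMSO and 83.8 to 100.4 CPM (median 92.3) in the 12 libraries, a log2 difference of -0.48 (SE 0.0784, adjusted p = 9.31e-05). Its values did not overlap between the sets. UQCR11, a small subunit of complex III, differed by -0.36 (adjusted p = 1.70e-03), and ATP5MG, a membrane subunit of ATP synthase, by -0.41 (adjusted p = 1.87e-03). With the length trend removed 15 members were lower and 1, ATP5F1D, was higher (0.33, adjusted p = 0.0279), and 14 of the 23 stayed lower. The median of complex I went from -0.17 to -0.03. The count also rested on the DMSO libraries: it was 0 without DMSO replicate 1 and 34 without DMSO replicate 2. The members were higher in DMSO replicate 1 than in replicate 2 by a median of 0.24 on the log2 scale.

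COX7A2L was also lower in each of the 6 compounds taken alone, with log2 differences from -0.43 in ACE to -0.52 in CYC. NDUFA7 and ATP5MG were lower in 4 of the 6. CYC had the most, 35 lower members and 0 higher, where 29.6% of all genes were called and 15.2% were lower. SDHB measured 36.8 and 37.5 CPM in CYC and 66.8 and 54.7 CPM in DMSO (log2 difference -0.71, SE 0.134, adjusted p = 2.77e-04). Complex IV held 11 of the 35 among its 15 tested members. Without DMSO replicate 1, 5 members were called in CYC, and NDUFA7, SDHB and COX7A2 were the members called whichever library was left out. ACE and TEP had 9 lower members each, where 3.6% (ACE) and 5.89% (TEP) of all genes were lower and 8.55% and 12.7% were called. TPHP had 6 (4.83% lower, 11.3% called). IMI and TDCIPP had 2 each, where 2.74% and 3.56% of all genes were lower and 6.21% and 9.06% were called. In ACE, TEP, TPHP, IMI and TDCIPP no call held under every left-out library, and each had 0 higher members. All these comparisons share the DMSO libraries. No counts with the length trend removed are given for them, so how far they depend on it is not known. Markers moved with them: surface ectoderm markers summed to 996 CPM in DMSO and to 2987 (IMI) to 4337 CPM (CYC) in the 6 compounds, and amnion markers to 11.5 CPM and to 65.96 (IMI) to 279 CPM (CYC). Neural ectoderm markers summed to 767 CPM in DMSO and to 217 (CYC) to 514 CPM (TDCIPP). Their part in the members' differences was not tested.

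The 9 compounds as a set had 13 higher and 0 lower members against DMSO (median 0.15), where 6.71% of all genes were called and 4.07% were higher. With the length trend removed this turned to 0 higher and 3 lower, and no member was called without DMSO replicate 1 or when only these 10 groups entered the fit. ATP5F1D, a subunit of the ATP synthase rotor stalk, had the lowest p. It measured 54.9 and 75.3 CPM in DMSO and 70.8 to 125 CPM (median 99.5) in the 18 libraries, which overlapped, with a log2 difference of 0.62 (SE 0.126, adjusted p = 6.56e-03). NDUFA11, a membrane-arm subunit of complex I, measured 95.1 and 86.6 CPM in DMSO and 103 to 163 CPM in the 9 compounds, a difference of 0.42 (adjusted p = 0.0170). Its values did not overlap between the sets.

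Among the single compounds of that set, AO_2246 had 24 higher members (10.5% of all genes called, 5.8% higher), all lost without AO_2246 replicate 1. NDUFA3, an accessory subunit of complex I, measured 128 and 106 CPM in AO_2246 and 79.8 and 69.5 CPM in DMSO (log2 difference 0.66, SE 0.130, adjusted p = 3.79e-03). BHT had 5 higher members (2.95% of all genes higher, 4.6% called), DTBP 3 (2.28% and 3.07%), BHT_CHO 2 (1.34% and 2.15%) and DG 1 (1.96% and 5.49%), and none of these calls held under every left-out library. ATP5F1D was higher in 5 of the 9 and ATP5PF, of the peripheral stalk, in 4. By edgeR, AO168_O, BHA, BHT_COOH and TBHQ had 0 called members, where 0%, 0.00621%, 0.00621% and 0.161% of all genes were called. At an unadjusted p under 0.05 these 4 had 21, 4, 9 and 20 of 82 members, beside 918, 1041, 1549 and 1624 of the 16113 genes tested. By DESeq2 they had 0, 0, 0 and 2 called members. The names BHT, BHT_CHO and BHT_COOH share a stem, and their median log2 differences over the members stood at 0.19, 0.20 and 0.07. With no doses stated, compounds were not tested against each other. Counts with the length trend removed are not given for these single compounds either.

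**Figure D4:**
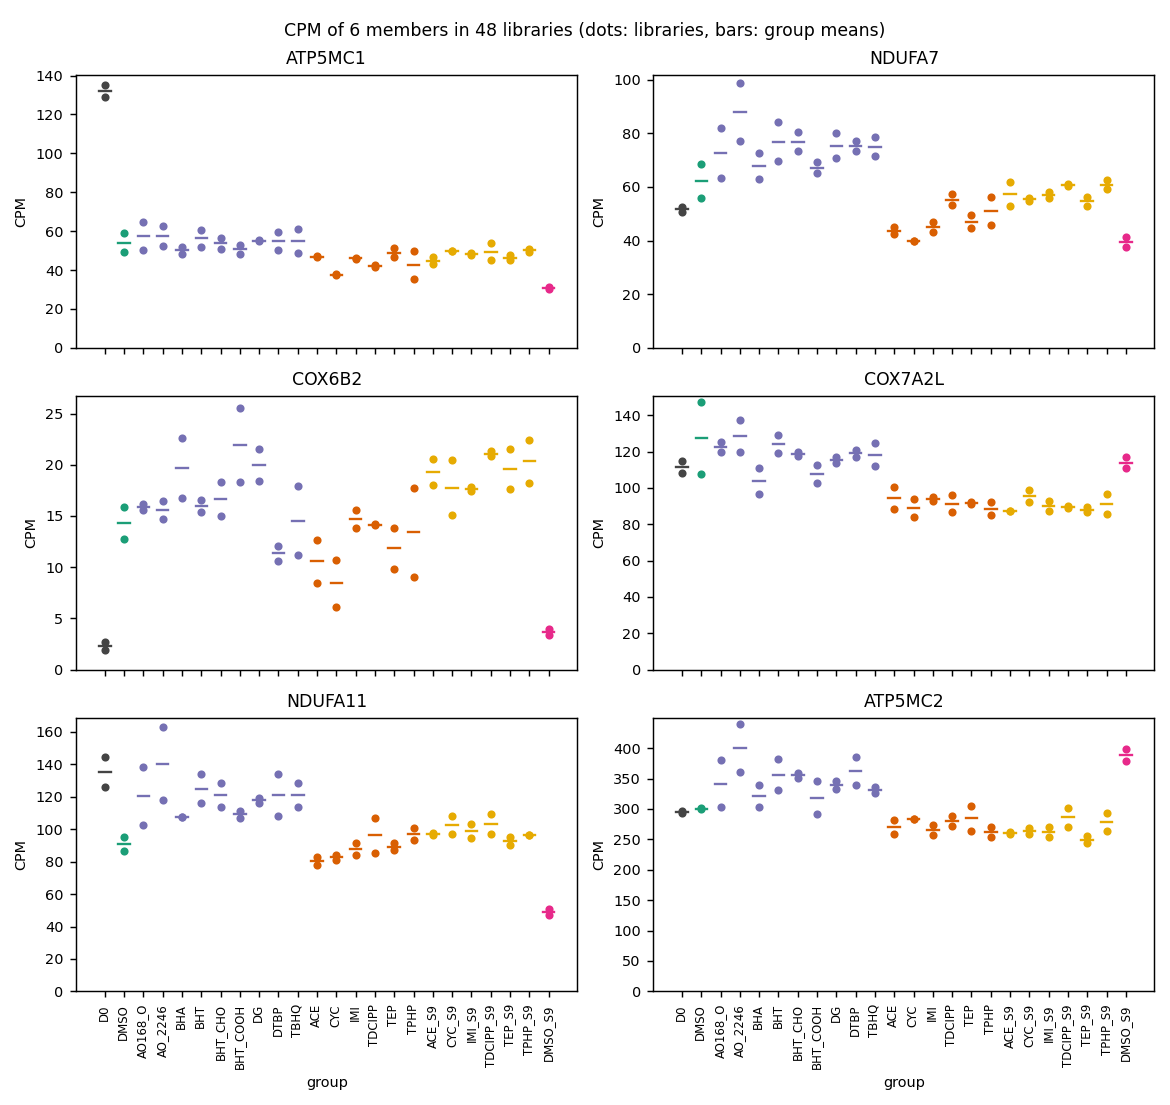
CPM of 6 members in all 48 libraries (dots) by group, with bars for group means and vertical axes from 0. ATP5MC1 is highest at D0 (135 and 129 CPM), COX6B2 is lowest at D0, and NDUFA11 is lowest in DMSO with S9 (51.0 and 47.2 CPM).

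DMSO with S9 was compared with DMSO, the solvent control without it. Here 42 members fell and 1 rose (median -0.34), where 45.7% of all genes were called, 24.7% lower and 21% higher. COX6B2 measured 3.93 and 3.42 CPM with S9 and 12.7 and 15.9 CPM without (log2 fold change -1.95, SE 0.292, adjusted p = 5.99e-06). NDUFA11 measured 51.0 and 47.2 CPM with S9 and 95.1 and 86.6 CPM without, and fell by 0.88 (SE 0.136, adjusted p = 8.75e-06). ATP5MC1 measured 30.1 and 31.3 CPM with S9, below its 58.9 and 49.3 CPM in DMSO, and fell by 0.81. ATP5MC2 was the member that rose, from 299 and 302 CPM to 399 and 378 CPM (log2 fold change 0.38, SE 0.107, adjusted p = 5.32e-03). None of these 4 overlapped between the groups.

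SDHD and SDHB fell by 0.71 and 0.64, and SDHC did not pass the test (0.05, adjusted p = 0.647). Of the 43 calls, 14 held whichever library was left out, and without DMSO replicate 1 the count was 16. With the length trend removed 38 members were lower and 5 higher. Stem cell markers summed to 75.1 CPM with S9 and 977 without. Amnion markers summed to 1.09 and 11.5 CPM, and muscle and heart markers to 28.0 and 61.6 CPM. Neural ectoderm markers summed to 1071 and 767 CPM, though LHX5 was lower with S9 (95.1 and 350 CPM). Surface ectoderm markers summed to 1284 and 996 CPM, though GATA3 was lower with S9 (7.83 and 21.9 CPM). The part of these markers in the members' fall was not tested. Mitochondrial ribosomal proteins fell in 47 of 78 and rose in 2, and glycolytic genes rose in 8 of 22 and fell in 5. Over all genes tested 24.7% fell and 21% rose.

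In the 6 compounds S9 went with higher subunit levels. Of 82 members 39 were higher with S9 than without and 0 were lower (median 0.11), where 41.3% of all genes were called and 21.1% were higher. Complex I held 19 of these among its 36 members and complex IV held 11 among 15. COX6B2 ran from 15.1 to 22.4 CPM (median 19.3) in the 12 libraries with S9 and from 6.13 to 17.7 CPM (median 13.2) without, a difference of 0.69 (SE 0.108, adjusted p = 1.01e-05). NDUFA7 ran from 52.8 to 62.6 CPM with S9 and differed by 0.31 (adjusted p = 3.40e-05). Both overlapped between the sets. With the length trend removed 28 members were higher and 8 lower. Markers moved here too. Surface ectoderm markers summed to 1135 to 1606 CPM in the groups with S9 and 2987 to 4337 CPM without, amnion markers to 9.88 to 21.5 CPM and 65.96 to 279 CPM, and neural ectoderm markers to 565 to 704 CPM and 217 to 514 CPM. Their part in the members' difference was not tested. COX7A2L ran from 85.4 to 99.0 CPM with S9 and from 83.8 to 100.4 CPM without.

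The groups with S9 can also be set against DMSO with S9, on 12 and 2 libraries. Of 82 members 46 were higher and 11 lower (median 0.28), where 61.2% of all genes were called, 30.9% higher and 30.3% lower. NDUFA11 ran from 90.1 to 109 CPM against 51.0 and 47.2 CPM (log2 difference 1.00, SE 0.111, adjusted p = 1.44e-08). ATP5MC2 ran the other way, from 244 to 302 CPM against 399 and 378 CPM (-0.55, SE 0.0781, adjusted p = 9.28e-07). Neither overlapped between the sets. All of these values rest on the DMSO with S9 libraries, which stood apart in their markers.

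The change with S9 was also compared between the 6 compounds and DMSO. Of 82 members 55 had a more positive and 3 a more negative change with S9 in the 6 compounds than in DMSO (interaction term of the same fit), where 50.9% of all genes were called, 26.7% positive and 24.2% negative. The median interaction was 0.45 over the members and -0.02 over all genes tested. Positive calls were 23 of 36 in complex I, 3 of 4 in complex II, 5 of 9 in complex III, 13 of 15 in complex IV and 11 of 18 in complex V.

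Over the 24 groups, COX6B2 varied most among the tested members (SD of its group mean log2 CPM 0.72), followed by COX6A2 (0.41), ATP5MC1 (0.36), COX8A (0.33) and ATP5F1E (0.33). These SDs were computed with 0.5 CPM added, which compresses members of low CPM such as COX6A2 and COX4I2 (0.23), so the order depends on that choice. ATP5F1E encodes a small subunit at the foot of the ATP synthase central stalk. It was highest at D0 and lowest in DMSO with S9, as was ATP5MC1. COX8A was highest at D0 and lowest in CYC.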

How the data were processed

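The 85 members, the gene lists and the comparisons were chosen with earlier results of these data known. Expected counts (read counts with decimals, per the file headers) were deposited by the authors for 48 libraries, and the genome build was GRCh38.p13, per the submitters' processing notes. TPM and FPKM values were deposited by the authors beside them, per the file headers. No aligner, counting tool or use of strand is stated in the sources used here, so a gene and one that overlaps it, on either strand, may share reads. The 72 columns of the authors' group means and 37 columns of the authors' comparisons were not used.

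Rounding to integers altered 43.4% of the expected counts. TPM gave levels only, and FPKM with the counts gave gene lengths. Tests used edgeR 4.0.16 in R 4.3.3 (filterByExpr, TMM, quasi-likelihood test), with p-values adjusted by Benjamini-Hochberg over all genes tested and a threshold of 0.05. Day 8 comparisons came from a fit of 46 libraries (16113 genes, 23 residual degrees of freedom), and DMSO against D0 from a fit of all 48 (16209 genes). Sets of compounds were compared by the mean of their group coefficients. Their p-values therefore measure the spread within groups of 2 libraries, not the spread between compounds. CPM used TMM-scaled library sizes. The test was tested on simulated data without a gene length trend or a shift shared by members within a library, so those were not covered.

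In each comparison the members named were up to 5 per direction by p among those called, the paralogues and tissue isoforms, complex II, the highest and lowest TPM per complex and the 5 most variable. Members outside this rule were chosen after their values were seen. Overlap between groups is described for named members only, with no share over all genes beside it. Alternatives were DESeq2 1.42.0, RLE scaling, no filter on low counts, a replicate block, each library left out, only the compared groups in the fit, leaving out both DMSO_S9 libraries with DG replicate 1, and removal of a lowess trend (span 0.3) of log2 CPM on gene length. Removal of the length trend is reported for DMSO against D0, the sets of compounds and the S9 comparisons, and not for single compounds. The replicate numbers come from the labels without any statement that they mark a shared culture or day.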

Additional observations from a re-analysis of the deposited data

Results flagged for a closer look

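The change with S9 differed between the 6 compounds and DMSO, as tested by an interaction term (the change with S9 in the 6 compounds minus that in DMSO). By edgeR 58 of 82 members passed, 55 with a positive and 3 with a negative interaction, where 50.9% of all genes tested were called. The median was 0.45 over the members, and the counts were 39 positive and 7 negative with the length trend removed. COX6B2 had the lowest p: it fell by 1.95 with S9 in DMSO and was 0.69 higher with S9 in the 6 compounds, an interaction of 2.64 on the log2 scale (SE 0.312, adjusted p = 1.38e-07). NDUFA11 fell by 0.88 in DMSO and differed by 0.15 in the 6 compounds, an interaction of 1.03 (adjusted p = 1.99e-06). The interaction was 0.96 for NDUFA7, 0.90 for COX7B and 0.78 for UQCR11. It was negative for ATP5MC2 (-0.42, adjusted p = 3.98e-03), NDUFB11 (-0.31, adjusted p = 0.0436) and COX4I2 (-1.64, adjusted p = 0.0333), the last on at most 14 counts in a library. The count was 32 without DMSO replicate 1, and 30 calls held whichever of the 28 libraries was left out. DMSO with S9 stood apart from other day 8 groups in its stem cell markers (75.1 CPM) and its amnion markers (1.09 CPM). The part of these in the interaction was not tested. No group has more than 2 libraries, so a library far from its group could not be looked for.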

How the results depend on the processing

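With each library left out in turn, the count of called members ran from 44 to 69 (DMSO against D0), 0 to 34 (6 compounds against DMSO), 0 to 18 (9 compounds against DMSO), 71 to 75 (6 against 9 compounds), 16 to 56 (DMSO with S9 against DMSO), 31 to 42 (6 compounds with S9 against without), 44 to 59 (6 compounds with S9 against DMSO with S9) and 32 to 62 (S9 interaction). For single compounds against DMSO they ran from 5 to 48 in CYC, 0 to 17 in ACE, 0 to 8 in IMI, 0 to 9 in TDCIPP, 0 to 16 in TEP, 0 to 12 in TPHP, 0 to 41 in AO_2246, 0 to 0 in AO168_O, 0 to 14 in BHT, 0 to 3 in BHT_CHO and 0 to 2 in each of BHA, BHT_COOH, DG, DTBP and TBHQ. A group with 1 library left was assumed to vary like the others. With only the compared groups in the fit, 43 members were called in DMSO against D0 and 0 in the 9 compounds against DMSO. DESeq2 called 15 in ACE, 5 in IMI, 4 in TDCIPP, 12 in BHT, 8 in BHT_CHO, 6 in DG, 9 in DTBP and 2 in TBHQ. Without the filter on low counts 1 was called in TDCIPP and 1 in BHT_CHO. With the length trend removed 3 were called in the 9 compounds against DMSO. Between the 6 and 9 compounds, removing that trend turned 12 lower members into higher calls. Of the genes named there it reversed ATP5IF1 to 0.14, ATP5MC1 to 0.10 and UQCRH to 0.17, and also ATP5MC2 to 0.053 and COX6B1 to 0.027, which did not pass (adjusted p = 0.101 and 0.323). The cause of these changes was not tested. Of the values of single genes named in that comparison, 568 of 570 kept their direction and call with a library left out, and 124 of 133 under the other alternatives. Same-numbered libraries did not deviate together in every pair of groups: over 276 pairs the correlation of replicate 1 minus replicate 2 ran from -0.6 to 0.771 (median -0.012), over 0.1 in 97 and under -0.1 in 81. For the members the median of replicate 1 minus replicate 2 was 0.24 in DMSO, 0.36 in AO168_O, 0.29 in AO_2246, 0.24 in BHT, 0.19 in TBHQ and 0.13 in DTBP. It was negative in TPHP (-0.20), BHA (-0.125) and TDCIPP with S9 (-0.10), and ran from -0.064 to 0.099 in the remaining groups. With the replicate block the counts were 67 in DMSO against D0, 16 in ACE, 4 in IMI and 4 in TDCIPP. With 2 libraries per group, differences that are small against their spread were not detectable.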
